A study of Mus musculus with 4 samples.

Results

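The genes described here encode the machinery that times the cell cycle: cyclins, the cyclin-dependent kinases (CDKs) they activate, CDK inhibitors, E2F transcription factors with their pocket protein partners, CDC25 phosphatases with the opposing kinase WEE1, and the transcription factors of mitotic genes. A list of 48 such genes was matched by symbol to array probe sets annotated with a single gene, and each gene was represented by its probe set with the highest mean over the 4 arrays. Of the 48 genes, 47 had such a probe set, out of 18193 genes with one, and 45 were bright enough to be tested, out of 10501 genes tested. Ccnb1 had no probe set with a single gene symbol, and the inhibitor genes Cdkn2a and Cdkn2b lay under the level filter. The members fall into 6 classes, and none of the 47 lies on the X or Y chromosome.

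RNA came from mouse CD4+ T cells, lymphocytes that help other immune cells, isolated as naive cells from spleen with peripheral and mesenteric lymph nodes. All cultures ran for 7 days with 10% serum, human TGFb1 at 1 ng/ml, a cytokine that restrains T cell growth and favours regulatory T cells, and concanavalin A at 2.5 ug/ml, a lectin that drives T cells to divide. The TGFb1 group (2 arrays) received nothing more, and the progesterone group (2 arrays) also received progesterone, a steroid hormone, at 2000 ng/ml. The labels name no strain, age or sex and do not say whether replicates were separate cultures or animals, and the p-values therefore reflect the spread among these 4 arrays alone, which may be technical.

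Signals below are MAS5 intensities after quantile normalisation, which gives the arrays the same distribution of values. Changes are log2 differences, progesterone minus TGFb1 alone, of log2(signal + 16), which shrinks changes of dim genes, and come with the limma standard error (SE), n = 2 per group. A gene fell or rose where its Benjamini-Hochberg adjusted p over all 10501 genes was under 0.05. In bulk RNA, fewer cells of a kind and less RNA per cell cannot be told apart.

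The 2% trimmed mean of the deposited signals ran from 108 to 155 over the arrays. X- and Y-linked genes separated the groups too. Xist had a signal of 10.6 and 10.8 with TGFb1 alone and 1432 and 1106 with progesterone, and Eif2s3y had 596 and 671 against 3.32 and 0.50. Kdm5d and Uty, also Y-linked, were lower with progesterone (-3.77 and -2.56). By these genes the sex of the cells, which the labels do not give, followed the treatment. Its part cannot be told apart from that of progesterone in any result below. The defining T cell markers were bright in all arrays, led by Cd3d (6386 and 6609 with TGFb1 alone, 6772 and 6685 with progesterone) and Cd2. By limma none of the 8 tested T cell markers passed, and 4 were lower at an unadjusted p under 0.05. The summed signal of 8 myeloid markers was 491 and 289 with TGFb1 alone and 1010 and 1157 with progesterone, with 1 of 7 tested called, Lyz2 (2.69 higher). Lyz2 (173 and 54.1 against 685 and 770) made most of that rise, since the other 7 markers summed to 318 and 235 against 326 and 387, and Itgam was at -0.81. Among 4 mast cell markers, 3 of them tested, Kit was called (1.09 higher). The brightest, Cpa3, was at -0.33 (966 and 647 against 545 and 719) and Fcer1a at 0.49, neither called. The list sums were 1380 and 954 against 1087 and 1383. NK cell markers summed to 408 and 488 against 247 and 268, B cell markers to 110 and 78.2 against 169 and 91.2. CD8 markers summed to 143 and 170 against 154 and 102. In each of these lists 2 genes were tested and none was called, but both NK genes were lower at an unadjusted limma p under 0.05. Erythroid markers summed to 16.7 and 25.8 against 24.0 and 21.8, too dim for any to be tested. The part of these differences in the results below was not tested.

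Cell division is ordered by waves of cyclins. D-type cyclins with CDK4 or CDK6 act in G1 in answer to growth signals and, together with E-type cyclins and CDK2, inactivate the pocket proteins RB1, RBL1 and RBL2, which releases E2F factors to switch on the genes of DNA replication. Cyclin A and B with CDK1 then drive cells through G2 into mitosis, once CDC25 phosphatases have removed the inhibitory phosphate that WEE1 adds. Late genes are switched on by FOXM1 and MYBL2 with the MuvB complex, to which LIN9 and LIN54 belong, and CDK inhibitors of the CIP/KIP and INK4 families hold the kinases back.

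With progesterone, the genes of cyclin A2 (Ccna2), cyclin B2 (Ccnb2), CDK1 (Cdk1) and the CDK phosphatase Cdkn3 were 5.33-fold to 7.21-fold lower, while the G1 kinase genes Cdk4 and Cdk6 and the pocket protein gene Rb1 overlapped between the groups. Of the 45 tested members 15 fell, 1 rose and 29 did not pass, against 5.18% of all genes that fell and 2.99% that rose. The changes of the members that fell ran from -2.85 for Ccna2 to -0.54 for Ccne1, and the members had a median change of -0.30 against 0.02 over all genes tested. Both progesterone arrays lay below both TGFb1 arrays for 27 members (26.1% of all genes), both lay above for 7 (29.6% of all genes), and the groups overlapped for 11. Without progesterone replicate 2 the count of members that fell was 9, all of them among the 15, and Ccne1, Ccnf, E2f7, E2f8, Foxm1 and Wee1 were lost. Ccne1, E2f8 and Wee1 also missed the threshold without the level filter and without the intensity trend. Over all genes that count went from 544 to 186 without this array and to 303 without progesterone replicate 1, with which 14 members fell. Cdc25c, E2f1, E2f7 and E2f8 had 1 or 2 progesterone arrays under the signal of the level filter (23.8) and were tested because of their TGFb1 arrays. Over the other 41 tested members 12 fell and 1 rose. For Cdc25c, E2f7 and E2f8 a fold is therefore given with each progesterone array under the filter level set to that level. Such a fold is a lower bound for the effect of those dim arrays alone. It leaves out the spread between arrays and is no confidence limit. The adjusted p of these genes is that of the limma fit without this setting.

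**Figure D1:**
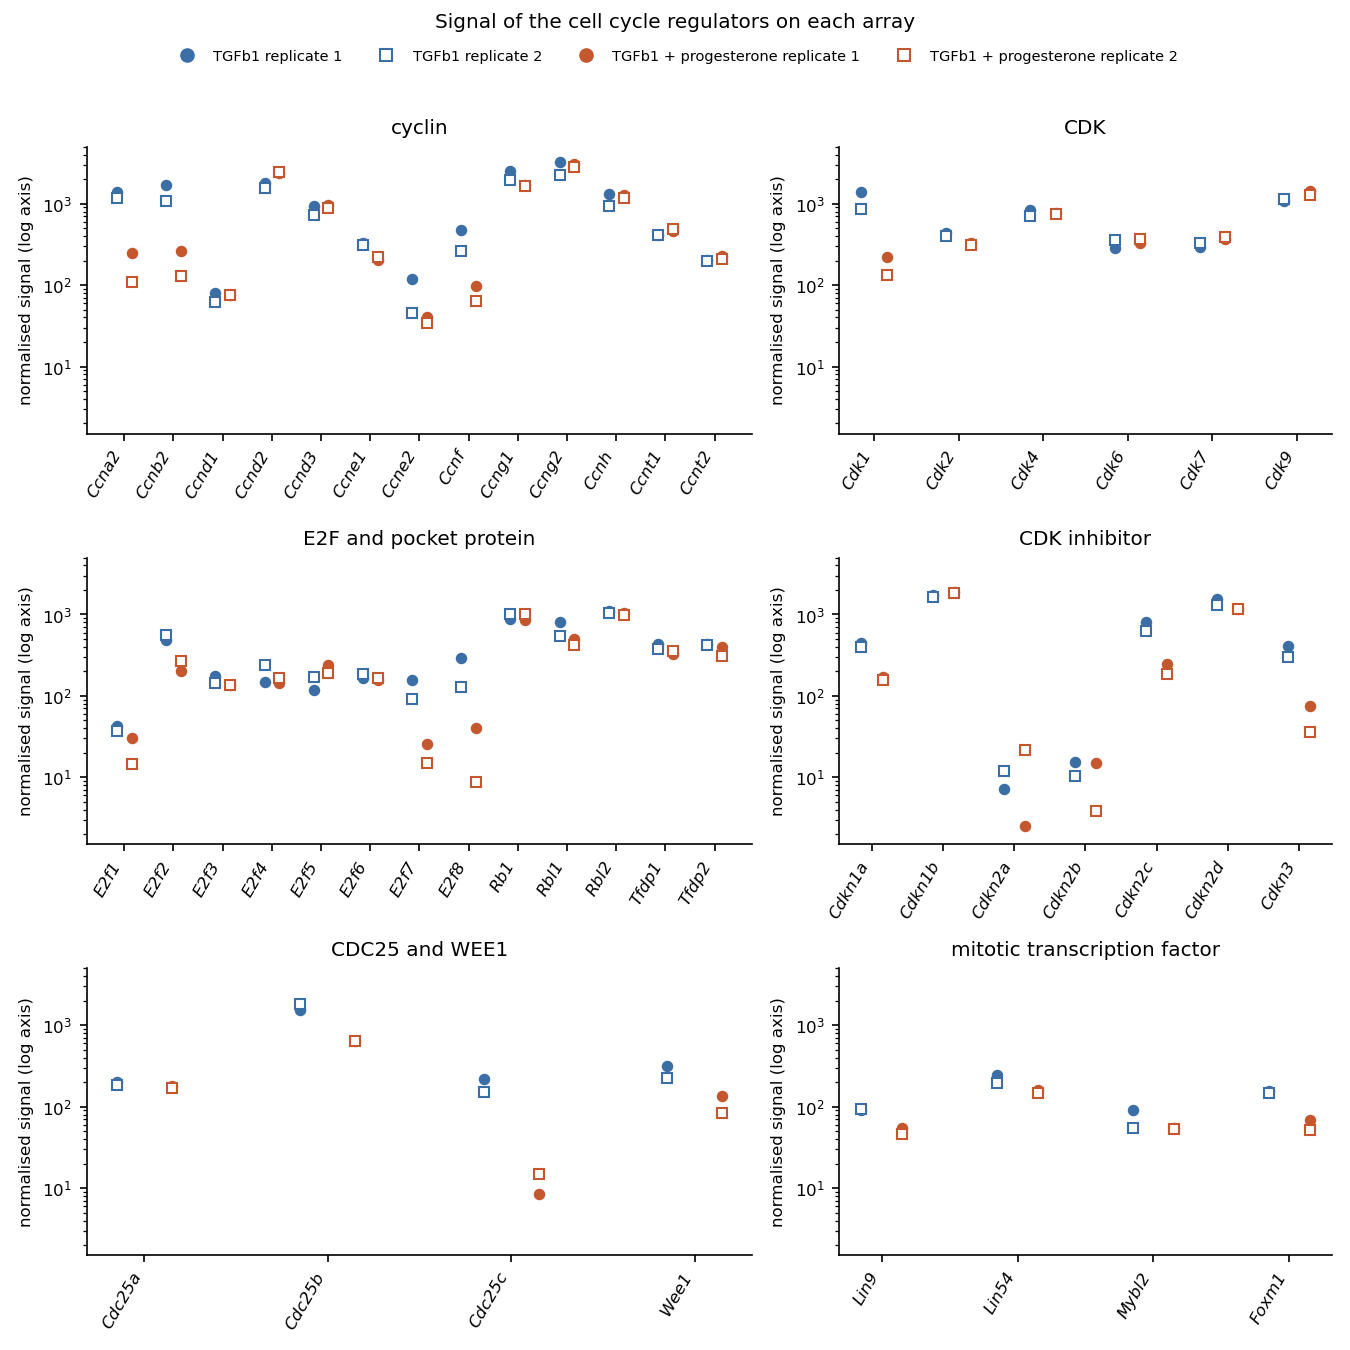
Normalised signal (log axis) of the 47 members with a probe set on each of the 4 arrays, by class. Blue marks TGFb1 alone and orange TGFb1 with progesterone, filled circles replicate 1 and open squares replicate 2. Ccna2, Ccnb2, Cdk1, Cdkn3 and Cdc25c stand well apart between the groups, while Cdk4, Rb1 and Ccng2 overlap.

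**Figure D2:**
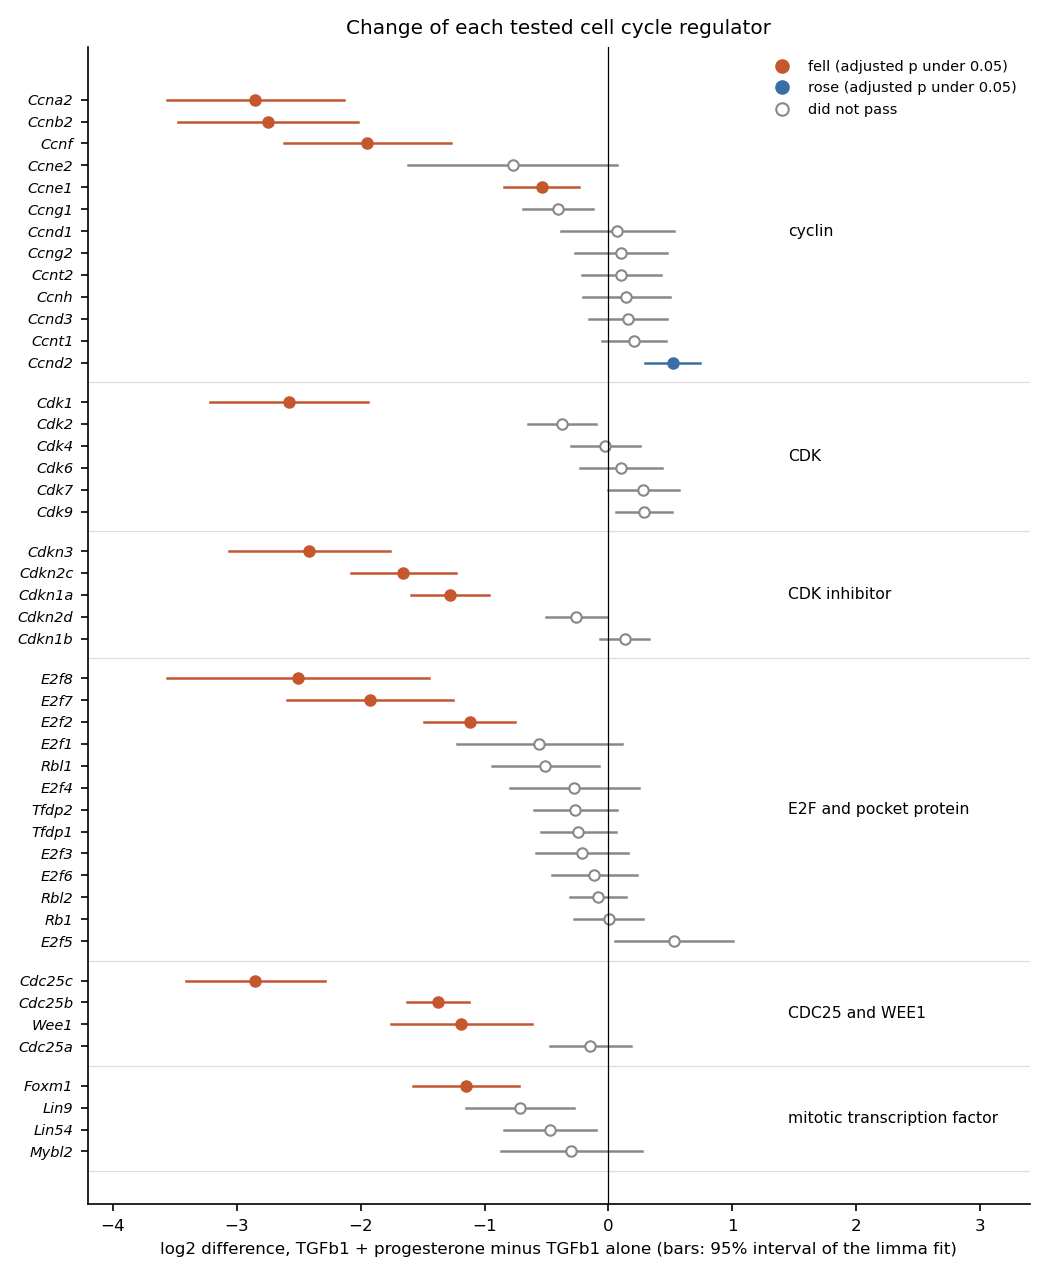
Log2 difference of each of the 45 tested members (x axis) with the 95% interval of the limma fit, ordered within its class. Filled orange points fell, the filled blue point (Ccnd2) rose, and open points did not pass at an adjusted p under 0.05. Cdc25c, E2f1, E2f7 and E2f8 have progesterone signals under the filter level, so their positions are not exact.

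Of the 13 tested cyclin genes 4 fell and 1 rose, against 5.18% and 2.99% of all genes. The 3 largest falls belonged to the cyclins of S phase and mitosis. Ccna2, whose product cyclin A2 serves S phase and mitotic entry, had signals of 1404 and 1182 with TGFb1 alone and 248 and 108 with progesterone. It changed by -2.85 ± 0.31 (SE; limma adjusted p = 0.00233), a 7.21-fold lower level, and stood at rank 15 from the bottom of the 10501 genes. Its other probe set was at -2.60. Ccnb2, a B-type cyclin that pairs with CDK1 in mitosis, had signals of 1685 and 1074 against 265 and 130, with no overlap, and changed by -2.75 ± 0.31 (adjusted p = 0.00269). Ccnf, the gene of cyclin F, which serves a ubiquitin ligase rather than a CDK, was at 480 and 259 against 97.7 and 64.5 and fell by 1.95 ± 0.29 (adjusted p = 0.00763). Without progesterone replicate 2 the change of Ccnf was -1.73 and no longer called. The lowest limma adjusted p over its 18 alternatives, 1.3e-15, came with the values as deposited, where the change was -2.14. The median of all genes was -0.22 there, so this p does not reflect a larger change. With 2 arrays per group, very small p-values over the alternatives, here and below, rest on the variance model and do not measure replication.

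The E-type cyclins, which act at the entry into S phase, differed less between the groups. Ccne1 had signals of 330 and 307 with TGFb1 alone and 206 and 223 with progesterone. These do not overlap, and the gene fell by 0.54 ± 0.13 (adjusted p = 0.0459), close to the threshold, which it missed when any of the 4 arrays was left out. Its adjusted p under the alternatives lay between 0.00135 and 0.246. The probe set used for Ccne1 carries the suffix _x_at, which marks possible cross-hybridisation, and its other probe set was at -0.45. Ccne2 was at 120 with TGFb1 replicate 1 but at 44.8 with TGFb1 replicate 2, near the 40.6 and 34.0 of the progesterone arrays, and its change of -0.77 ± 0.36 did not pass (adjusted p = 0.241). Its change was -0.18 without TGFb1 replicate 1 and -1.32 without TGFb1 replicate 2, where it was called, and over the alternatives its adjusted p ran from 0.0197 to 0.778. The change of Ccna2 minus that of Ccne1 was -2.31, and the log2 ratio of both genes lay lower in each progesterone array (-1.72 and -2.91, relative to the TGFb1 mean) than in each TGFb1 array (0.07 and -0.07). With 4 arrays an exact permutation test of such a ratio cannot give a p below 0.333, so none is given here. The pairs compared by ratio, here and below, were chosen after their values were seen, so a separation of the groups adds no support.

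Among the D-type cyclins, Ccnd2 was the one member that rose. Its signals were 1796 and 1555 with TGFb1 alone and 2374 and 2424 with progesterone, and it was higher by 0.52 ± 0.10 (adjusted p = 0.0165), 1.43-fold. All 7 of its probe sets lay between 0.05 and 0.54. This call depended on scaling, since Ccnd2 was at 0.37 with one trimmed mean for all arrays, 0.08 with the values as deposited and -0.05 after median centring of each array, where it did not pass and where the median of all genes was 0.05, -0.22 and -0.34. Nor did it pass when either progesterone array was left out, and over the alternatives its adjusted p ran from 0.00034 to 0.891. Ccnd3 (935 and 728 against 966 and 879) overlapped between the groups at 0.16 ± 0.14 (adjusted p = 0.523), with its probe sets between -0.12 and 0.72, and Ccnd1 was dim (80.6 and 61.9 against 75.1 and 75.4) at 0.07 ± 0.20. With the values as deposited, where the median of all genes was -0.22, Ccnd3 was at -0.24 and Ccnd1 at -0.00. The log2 ratio of Ccnd2 to Ccnd3 was higher in both progesterone arrays (0.28 and 0.44, relative to the TGFb1 mean) than in both TGFb1 arrays (-0.07 and 0.07).

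The remaining cyclins did not pass. Ccng1, a p53 target, was at 2531 and 1971 against 1692 and 1670, without overlap, and changed by -0.41 ± 0.12 (adjusted p = 0.0911), with all 3 of its probe sets between -0.50 and -0.41. It was called in 6 of 18 alternatives, and its adjusted p ran from 0.00169 to 0.404. Ccng2, a cyclin of resting cells, was bright on all arrays (3273 and 2254 against 3029 and 2800) and overlapped between the groups. Ccnh, the partner of CDK7, and Ccnt1 and Ccnt2, the partners of CDK9 in transcription elongation, had changes of 0.14, 0.21 and 0.10. Another probe set of Ccnt2 was at 0.85, so the probe sets of this gene disagree.

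Of the 6 tested CDK genes 1 fell, against 5.18% of all genes, and a single call among so few says little about the class. Cdk1, the kinase of mitosis, had signals of 1410 and 859 with TGFb1 alone and 220 and 132 with progesterone, so that even the higher progesterone array lay well under the lower TGFb1 array. It fell by 2.58 ± 0.27 (limma adjusted p = 0.00221), a 5.98-fold lower level, and was called in all 18 alternatives. Cdk2, the kinase of S phase, was at 434 and 403 against 325 and 314, a small separation that did not pass at -0.37 ± 0.12 (adjusted p = 0.107). The change of Cdk1 minus that of Cdk2 was -2.21, with the log2 ratio of both genes at 0.30 and -0.30 with TGFb1 alone and -1.89 and -2.52 with progesterone, relative to the TGFb1 mean. The G1 kinase genes Cdk4 (844 and 705 against 778 and 738) and Cdk6 (289 and 357 against 329 and 364) overlapped between the groups, with 95% intervals of the change from -0.30 to 0.25 for Cdk4 and from -0.23 to 0.44 for Cdk6. Cdk7, which activates other CDKs, and Cdk9, an elongation kinase, were higher in both progesterone arrays at 0.28 ± 0.12 (adjusted p = 0.216) and 0.29 ± 0.10 (adjusted p = 0.128), and with the values as deposited they were at -0.02 and -0.12, above the median of all genes there (-0.22).

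Promoters are shown because several of the members that fell share short sequence words known from late cell cycle genes. LIN54 recognises the cell cycle genes homology region (CHR), NF-Y recognises the CCAAT box and E2F factors recognise a GC-rich word. Exact matches on both strands were sought for the CHR words TTTGAA and TTCGAA, for CCAAT and for the E2F words TTTCCCGC, TTTGGCGC, TTTCGCGC and TTTGCCGC, in RefSeq windows (GRCm38.p6) from 250 bases before to 50 after each start of transcription. These words do not overlap one another in the stretches printed. Over all 32851 windows, 19.2% held a CHR word, 37.4% a CCAAT word, 7.52% both and 2.26% an E2F word. Windows were found for 36 members, some with more than 1 window. Ccna2, Cdc25c, Foxm1 and Wee1, which fell, had none. A member was counted where any of its windows matched, so these counts are not in the unit of the shares over single windows. Of the 11 members that fell and had a window, 7 held a CHR word, 9 a CCAAT word, 7 both in the same window and 3 an E2F word. Of 22 tested members that did not pass, 3 held a CHR word, 10 a CCAAT word, 2 both and 5 an E2F word. In the stretches below, matches are in capitals (CCAAT reads ATTGG, and TTTGAA reads TTCAAA, on the other strand), and Cdk4 is given as a member that did not pass and has no match. The stretches are chr9:70421545-70421654 (minus strand, positions -100 to 10 from the start) for Ccnb2, chr10:69352913-69353052 (minus strand, -140 to -1) for Cdk1, chr17:24251410-24251559 (minus strand, -150 to -1) for Ccnf, chr7:48881597-48881716 (minus strand, -120 to -1) for E2f8 and chr10:127063415-127063534 (plus strand, -120 to -1) for Cdk4.
Ccnb2: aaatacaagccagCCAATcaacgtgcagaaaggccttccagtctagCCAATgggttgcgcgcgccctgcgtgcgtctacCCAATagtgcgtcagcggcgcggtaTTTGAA
Cdk1: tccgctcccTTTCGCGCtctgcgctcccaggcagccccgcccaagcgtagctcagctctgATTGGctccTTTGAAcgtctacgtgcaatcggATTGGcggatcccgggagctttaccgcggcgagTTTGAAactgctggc
Ccnf: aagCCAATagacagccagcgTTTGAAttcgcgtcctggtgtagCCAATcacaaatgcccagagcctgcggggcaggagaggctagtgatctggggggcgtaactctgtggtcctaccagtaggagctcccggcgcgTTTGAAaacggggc
E2f8: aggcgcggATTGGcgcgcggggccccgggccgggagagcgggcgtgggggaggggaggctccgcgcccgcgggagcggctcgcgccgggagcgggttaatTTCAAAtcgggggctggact
Cdk4: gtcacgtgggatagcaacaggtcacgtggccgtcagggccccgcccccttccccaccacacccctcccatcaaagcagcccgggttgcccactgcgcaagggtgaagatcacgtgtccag

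In the Ccnb2 stretch 3 CCAAT words start at -87, -54 and -21 and a CHR word starts at 5. Cdk1 holds a CHR word at -15, another at -71 and an E2F word at -131, and Ccnf holds CHR words at -14 and -130. Cdkn3, Cdc25b and E2f2 are the other members that fell with both a CHR and a CCAAT word, whereas no window of Ccne1 or Cdkn1a held any of the words. A match describes the letters only, and no binding was measured.

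Of the 5 tested CDK inhibitor genes 3 fell and none rose, against 5.18% and 2.99% of all genes. Cdkn1a encodes p21, which p53 and TGFb signalling both induce and which binds cyclin and CDK complexes. Its signals were 452 and 395 with TGFb1 alone and 172 and 159 with progesterone, a tight separation, and it changed by -1.28 ± 0.14 (limma adjusted p = 0.00221), 2.42-fold lower. The call held in all 18 alternatives. Cdkn1b, the gene of p27, an inhibitor of resting T cells, was bright in both groups (1740 and 1625 against 1864 and 1828), at 0.13 ± 0.08 (adjusted p = 0.388), with a dimmer probe set at -0.39 and a difference of -0.31 with the values as deposited, where the median of all genes was -0.22. The change of Cdkn1a minus that of Cdkn1b was -1.41, with log2 ratios of 0.05 and -0.05 with TGFb1 alone and -1.37 and -1.45 with progesterone.

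Cdkn2c, the gene of the INK4 inhibitor p18, was at 815 and 619 with TGFb1 alone and 249 and 185 with progesterone, and fell by 1.66 ± 0.18 (adjusted p = 0.00245). Its relative Cdkn2d, the gene of p19, was at 1535 and 1301 against 1178 and 1177 and did not pass, at -0.26 ± 0.11 (adjusted p = 0.187). The other INK4 genes were dim on every array. Cdkn2a was at 7.10 and 11.8 against 2.54 and 21.5, and Cdkn2b, a gene that TGFb induces in epithelial cells, was at 15.6 and 10.4 against 14.8 and 3.81. Cdkn3 encodes a phosphatase that acts on CDKs, listed with the inhibitors by name. It was at 407 and 303 against 75.8 and 35.8, and fell by 2.41 ± 0.28 (adjusted p = 0.00269), 5.33-fold lower.

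Because Cdkn1a and Ccng1 are p53 targets, 18 other p53 targets were counted, of which 14 were tested. Of these 5 fell and 1 rose, with a median of -0.43, against 5.18% of all genes that fell and 2.99% that rose. The falls were those of the kinase gene Plk2 (-1.53 ± 0.19, adjusted p = 0.0036), the death gene Pmaip1 (-0.94 ± 0.13, adjusted p = 0.00583), Phlda3 (-0.93 ± 0.16, adjusted p = 0.0137) and, named after their values were seen, the sestrin genes Sesn1 (-0.41) and Sesn2 (-0.69). The anti-proliferative gene Btg2 rose (0.57, adjusted p = 0.0374), also named after its value was seen. With the values as deposited none rose. The count that fell was 3 without TGFb1 replicate 1, 2 without progesterone replicate 1 and 1 without progesterone replicate 2.

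Of the 13 tested E2F, dimerisation partner and pocket protein genes 3 fell and 0 rose (median -0.27), against 5.18% and 2.99% of all genes. The falls were those of E2f2, an activator, and of the atypical repressors E2f7 and E2f8, which are themselves switched on as cells enter S phase. E2f7 and E2f8 each had 1 progesterone array under the filter level and passed the filter through their TGFb1 arrays. Over the 10 genes of this class with no array under it 1 fell, E2f2, which says little about the class beside that share of all genes. E2f2 had signals of 485 and 567 with TGFb1 alone and 204 and 266 with progesterone and fell by 1.12 ± 0.16 (limma adjusted p = 0.00627), with its second probe set at -0.87. E2f7 was at 158 and 91.3 against 25.5 and 15.2. With its array under the filter level set to that level it was at least 3.36-fold lower, spread between arrays aside. Its limma fit without that setting gave an adjusted p of 0.00763 and a 95% interval of the change from -2.59 to -1.26. E2f8 was at 293 and 130 against 40.9 and 8.64, and the arrays of a group lay over 2-fold apart in both groups. On the same terms E2f8 was at least 4.46-fold lower. Its limma fit without that setting gave an adjusted p of 0.0158 and a 95% interval of the change from -3.56 to -1.45. It was called in 13 of 17 alternatives. The call of E2f8 was lost without TGFb1 replicate 1, and those of E2f7 and E2f8 without progesterone replicate 2, which left E2f2 as the 1 member of this class that fell.

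The other E2F genes did not pass. E2f1, an activator, was dim (42.1 and 36.7 against 30.5 and 14.4) at -0.56 ± 0.29 (adjusted p = 0.281), with a 95% interval from -1.22 to 0.11. E2f3 was at 177 and 145 against 136 and 136 (-0.21 ± 0.16), E2f4, a repressor of resting cells, at 148 and 242 against 142 and 166 (-0.28 ± 0.22) and E2f6 at 166 and 188 against 156 and 168 (-0.12 ± 0.15). E2f5, also a repressor, was higher in both progesterone arrays (117 and 173 against 239 and 190) at 0.53 ± 0.20 (adjusted p = 0.169), and its 3 probe sets lay between 0.19 and 0.53. It was called as higher without TGFb1 replicate 2, and its adjusted p under the alternatives lay between 0.0481 and 0.522. The change of E2f2 minus that of E2f3 was -0.91, with the log2 ratio lower in both progesterone arrays.

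The pocket proteins bind E2F factors. Rb1 was at 875 and 1000 with TGFb1 alone and 863 and 1014 with progesterone, the smallest difference of the tested members, 0.00 with a 95% interval from -0.28 to 0.28. Rbl1, the gene of p107 and an E2F target, was at 809 and 548 against 504 and 425 and did not pass at -0.51 ± 0.19 (adjusted p = 0.149). It was called without TGFb1 replicate 2 and with the values as deposited, its adjusted p ran from 0.00367 to 0.555, and a dimmer probe set was at -0.87. Rbl2, the gene of p130, which predominates in resting cells, was at 1113 and 1038 against 1044 and 984 (-0.08 ± 0.10). The dimerisation partner genes Tfdp1 and Tfdp2 lay lower in both progesterone arrays, at -0.24 ± 0.13 and -0.27 ± 0.14, without passing.

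Of the 4 genes that set the inhibitory phosphate on CDKs 3 fell, and 2 of the 3 with no array under the filter level, against 5.18% of all genes. Cdc25c, a phosphatase of mitotic entry, had signals of 216 and 153 with TGFb1 alone and 8.54 and 14.7 with progesterone. Both progesterone arrays lay under the filter level. With both set to that level Cdc25c was at least 4.96-fold lower on this probe set, which carries the suffix _x_at, spread between arrays aside. The limma fit without that setting gave an adjusted p of 0.00146. The other probe set of Cdc25c, at 137 and 75.6 with TGFb1 alone and 27.1 and 16.4 with progesterone, was lower by at least 2.86-fold. Cdc25b was at 1552 and 1810 against 634 and 640, with almost no spread in the progesterone group, and changed by -1.37 ± 0.11 (adjusted p = 0.00128). Cdc25a, the family member of the G1 to S transition, was at 200 and 187 against 178 and 168 and did not pass at -0.15 ± 0.14 (adjusted p = 0.564), although its second probe set was at -0.49. The log2 ratio of Cdc25b to Cdc25a changed by -1.23, at -0.16 and 0.16 with TGFb1 alone and -1.27 and -1.18 with progesterone. Wee1, which encodes the kinase that opposes CDC25, was at 312 and 223 against 137 and 82.7 and fell by 1.19 ± 0.24 (adjusted p = 0.026). The call of Wee1 was lost without TGFb1 replicate 1 and without progesterone replicate 2, and its adjusted p ran from 1.4e-06 to 0.161.

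Of the 4 genes for mitotic transcription factors and MuvB subunits 1 fell, against 5.18% of all genes, too few for a statement about the class. Foxm1, which encodes the forkhead factor of G2 and mitosis, was at 157 and 147 with TGFb1 alone and 68.3 and 52.0 with progesterone and changed by -1.15 ± 0.18 (limma adjusted p = 0.0101). Another of its probe sets was at -1.30, and the third, at 232 and 178 with TGFb1 alone, was under the filter level with progesterone (5.44 and 1.11), so no size is given for it. The call on the probe set used was lost without progesterone replicate 2, with an adjusted p from 2.6e-05 to 0.0778 over the alternatives. Lin9 was at 91.8 and 93.1 against 54.1 and 46.7 and narrowly did not pass at -0.71 ± 0.19 (adjusted p = 0.0617), with its other probe set at -0.62. Over the alternatives its adjusted p ran from 0.00701 to 0.298. Lin54 was at 247 and 196 against 159 and 149 (-0.47 ± 0.16, adjusted p = 0.124). Mybl2, the gene of B-MYB, was dim and overlapped between the groups (90.0 and 54.1 against 54.9 and 53.1) at -0.30 ± 0.24. The other MuvB partner genes, Lin37, Lin52, Rbbp4 and Dyrk1a, had no call among the 4 tested, also at an unadjusted p under 0.05 by limma, and lay between -0.13 and 0.09.

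**Figure D3:**
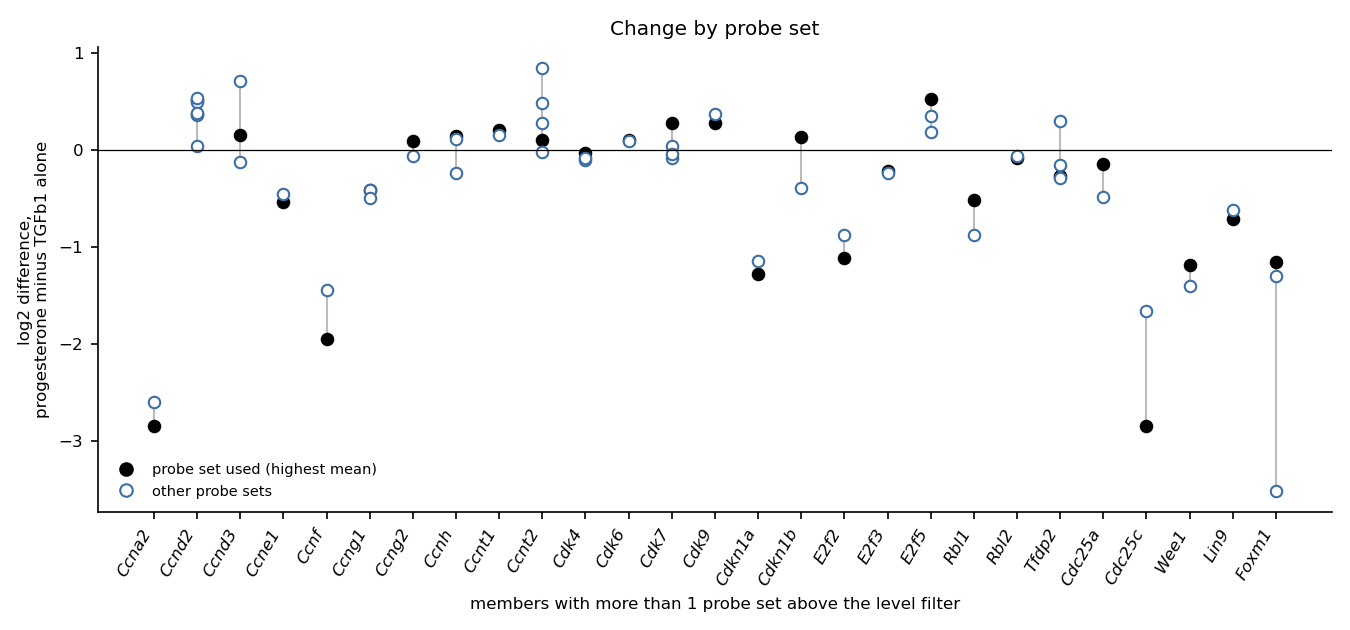
Log2 difference of every probe set above the level filter (y axis) for the members with more than 1. Filled points are the probe set used, open points the others, and a line joins the sets of a gene. The lowest points of Foxm1 and Cdc25c and the open points of Ccnf and Cdkn1a rest on progesterone signals under the filter level and are not measured sizes. The open point of Cdc25c and 1 of Cdk7 have 1 such array. Ccnd3, Ccng2, Ccnh, Ccnt2, Cdk7, Cdkn1b and Tfdp2 have sets on both sides of 0.

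The members were set beside other genes of the same machinery. Over all genes tested, 5.18% fell and 2.99% rose. Of 21 further cyclin and CDK genes, most with roles in transcription or outside division, 16 were tested, of which 1 rose (Ccnl2, a splicing cyclin, 0.49 ± 0.10, adjusted p = 0.0227) and 1 fell (Cdk19, a Mediator kinase, -0.53 ± 0.13, adjusted p = 0.0451), with a median of 0.13. Neither call was made without progesterone replicate 1 or without progesterone replicate 2, and no fall was called without TGFb1 replicate 1. Of 13 genes that degrade or bind cyclins, CDKs and inhibitors 7 fell and 0 rose (median -0.74), led by the APC/C inhibitor gene Fbxo5 (-1.85 ± 0.18), the CDK subunit gene Cks1b (-2.02 ± 0.21) and the APC/C activator gene Cdc20 (-2.22 ± 0.25). Without progesterone replicate 2 the count was 4.

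Known E2F targets of the G1 to S transition fell for 16 of 22 tested genes and rose for 0 (median -1.02). Of all genes 5.18% fell and 2.99% rose. The fallen targets included the ribonucleotide reductase subunit gene Rrm2 (-2.64 ± 0.27), the DNA methylation cofactor gene Uhrf1 (-2.42 ± 0.27) and the helicase subunit gene Mcm5 (-1.47 ± 0.18). The number of targets that fell depended on single arrays and was smaller without TGFb1 replicate 1 and without either progesterone array. All 20 tested genes of G2 and mitosis fell, with a median of -2.66 and a range from -3.28 to -1.71, by statistic led by the centromere histone gene Cenpa (-1.88 ± 0.15), the spindle protein gene Nusap1 (-3.00 ± 0.25) and Birc5 (-3.04 ± 0.27).

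**Figure D4:**
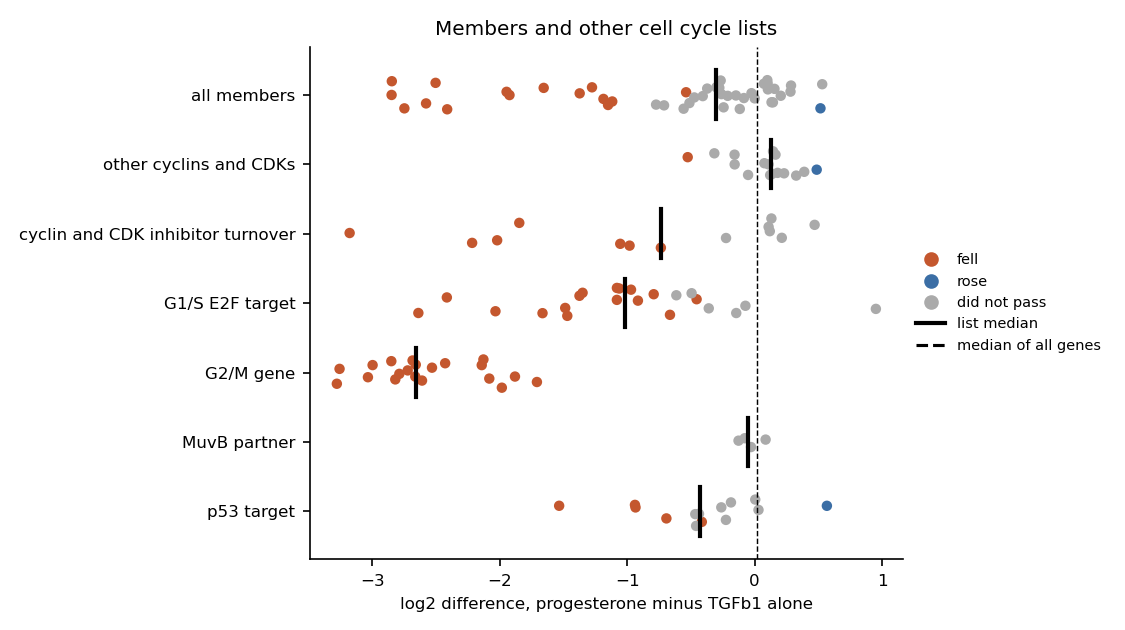
Log2 difference of each tested gene (x axis) for the members and for 6 further lists, with fallen genes in orange, risen genes in blue and genes that did not pass in grey. Thick bars are list medians (-0.30 for the members, -2.66 for G2/M genes) and the dashed line is the median of all 10501 genes, 0.02.

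The distance between the arrays of a group, as the median absolute log2 gap, was 0.41 in either group over the members that fell, against 0.24 with TGFb1 alone and 0.11 with progesterone over the other tested members that did not pass, and 0.17 and 0.14 over all genes. Of the 15 members that fell, replicate 1 held the higher signal in 13 with TGFb1 alone, in 11 with progesterone and in 11 in both groups. Of the 29 members that did not pass these counts were 21, 20 and 17, and of all 10501 genes they were 4806, 5151 and 2801. The median signed gap, replicate 1 minus replicate 2, over the 15 genes was also 0.41 in either group.

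Scaling moved the members by unlike amounts and not always in the same direction. With one trimmed mean for all arrays Ccnd1 went from 0.07 to 0.24 and Ccnd2 from 0.52 to 0.37. The 15 falls were called with one trimmed mean for all arrays, with the values as deposited and after centring every array on its median, where 16, 18 and 30 members fell in all. Of all calls over the 10501 genes, 63.4% were falls after quantile normalisation, 84.6% with the values as deposited and 96.0% with that centring. The 15 further falls under centring on the median, among them Cdk4, Rb1 and Cdkn1b, came with a median change of -0.34 over all genes.

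**Figure D5:**
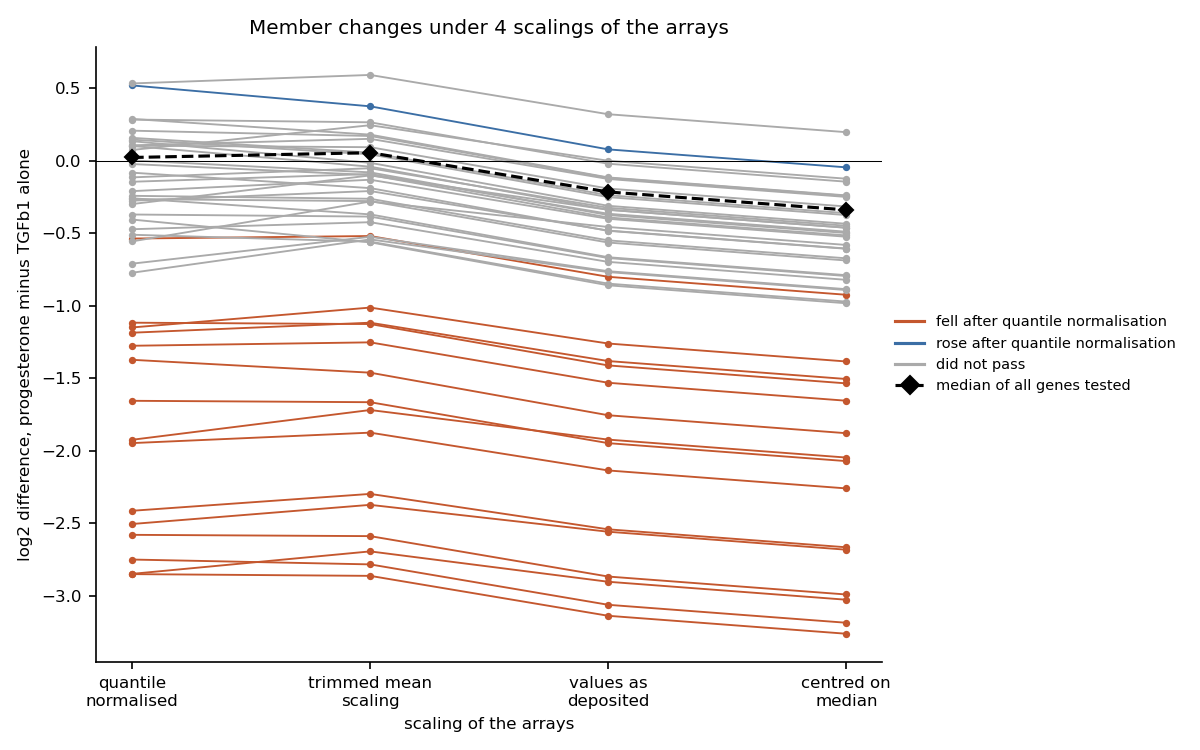
Log2 difference of the 45 tested members (y axis, a line per gene) under 4 scalings of the arrays, with the median of all genes tested as a dashed line. The members that fell (orange) lie below the median of all genes at every scaling, while Ccnd2 (blue) goes from 0.52 to -0.05.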

How the data were processed

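For each array the authors deposited linear signal intensity by probe set, and the submitters' processing notes name MAS5. The version and scaling are not given in the sources used here. Detection calls were not used, and the number of arrays limits the precision. Groups came from the sample titles. Of 45101 probe sets, 64 were controls, 34945 had 1 gene, 932 several and 9160 none. Symbols were updated by Entrez identifier to RefSeq (GRCm38.p6), which matched 34741.

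Because the trimmed means differed 1.43-fold, values were quantile normalised over all probe sets and taken as log2(signal + 16). A gene was tested if its brightest single-gene probe set lay above the median of all probe sets. Differences were fitted with limma 3.58.1 in R 4.3.3 (lmFit, eBayes with an intensity trend, prior 5.56 and residual 2 degrees of freedom, no covariates). The fit was tested on simulated data. Alternatives changed 1 choice at a time on the same genes and probe sets, except where filter or probe set was the choice. Text names every member, up to 3 genes per further list by moderated statistic and the brightest markers. Members, lists and rules were chosen with earlier results of these data known, and the pairs of members compared by ratio after their values were seen.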

Additional observations from a re-analysis of the deposited data

How the results depend on the processing

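Of the 45 tested members' values under the alternatives, 702 kept direction and side of the threshold, 25 lost the call, 33 gained one and 41 changed sign, and among genes that passed only Ccnd2 changed sign. Of the sign changes, 12 came with median centring and 11 with the values as deposited, which moved the median of all genes to -0.34 and -0.22. The causes of the others were not tested. In the count of all genes changed, 858 in total, 544 fell and 314 rose. Centring on the array median gave 3771, 3621 and 150, no level filter 490, 325 and 165, no intensity trend 470, 340 and 130, and the replicate block 1930, 1022 and 908. The upper 25% by level had 337 falls, and the values as deposited 145 rises. Leaving out 1 array gave 226 to 1031 changed, 186 to 581 falls and 40 to 450 rises.

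Members that fell numbered 30 after median centring and 9 to 18 with 1 array left out. The number of members that rose was 0 as deposited, with median centring, trimmed mean scaling, no intensity trend, the mean of probe sets or centring on tested genes, 3 with the replicate block and 0 to 2 with 1 array left out. Whether replicate numbers pair the samples is not known. The labels give no pairing, and a correlation of 0.205 over 2 pairs cannot decide it. The block gave 21 members that fell. Among other cyclins and CDKs falls were 5 with median centring and 0 without the filter or trend, and 0 to 1 with 1 array left out. Rises there were 0 as deposited, with each other scaling and without the filter or trend, 2 with the block, and 0 to 1 with 1 array left out. Turnover genes had 4 falls without the trend, 1 rise with the block and 4 to 7 falls with 1 array left out. G1/S targets had 10 falls without the filter, 8 without the trend, 4 to 17 with 1 array left out, and 1 rise as deposited, with each other scaling and with the block. MuvB partners had 3 falls with median centring. Of p53 targets 11 fell with median centring, 3 without the filter or trend, 8 with the block and 1 to 5 with 1 array left out, and the rises were 0 as deposited, with each other scaling and without the filter or trend, and 0 to 1 with 1 array left out.

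Sign changes (log2) with median centring were Ccnd1 -0.13, Ccnd2 -0.047, Ccnd3 -0.36, Ccng2 -0.46, Ccnh -0.38, Ccnt1 -0.24, Ccnt2 -0.25, Cdk6 -0.32, Cdk7 -0.15, Cdk9 -0.24, Cdkn1b -0.44, Rb1 -0.50. As deposited they were Ccnd1 -0.0017, Ccnd3 -0.24, Ccng2 -0.34, Ccnh -0.25, Ccnt1 -0.12, Ccnt2 -0.13, Cdk6 -0.19, Cdk7 -0.022, Cdk9 -0.12, Cdkn1b -0.31, Rb1 -0.38. With trimmed mean scaling they were Ccng2 -0.043, Cdkn1b -0.016, Rb1 -0.082, with centring on tested genes Ccng2 -0.089, Ccnh -0.0013, Cdkn1b -0.061, Rb1 -0.12 and with the mean of probe sets Cdkn1b -0.13. With 1 array left out the ranges were Ccnd1 -0.077 to 0.22, Ccnd3 -0.020 to 0.32, Ccng2 -0.17 to 0.36, Ccnh -0.084 to 0.37, Cdk4 -0.16 to 0.10, Cdk6 -0.040 to 0.25, E2f4 -0.59 to 0.047, Rb1 -0.12 to 0.12. Without the X and Y genes, an alternative added after seeing the data like the centring on tested genes, 15 members fell. Leaving out the X and Y genes does not separate the sex of the cells from the treatment. Dim signals limit Cdkn2a, Cdkn2b and E2f1.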

Other observations

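Probe sets of the members under the level filter entered no comparison. A second set of E2f8 had signals of 56.2 and 36.0 with TGFb1 alone and 3.87 and 2.21 with progesterone. The second set of Mybl2 was at 34.6 and 19.4 against 1.67 and 13.1. Those of Cdk2, Cdk6 and Rb1 were under 20 on all 4 arrays.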
